A study of Mus musculus with 9 samples.

Results

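Hyaluronan is a large unbranched sugar polymer of the space around cells, and the genes described here make it, cut it, bind it at the cell surface, or form a related class of surface proteoglycan. They were listed by name as 8 genes: the hyaluronan synthases Has1, Has2 and Has3, the hyaluronidases Hyal1 and Hyal2, the hyaluronan receptor Cd44, and the syndecans Sdc1 and Sdc4. Probe sets annotated with a single one of these symbols were found for 7 of the 8 genes, 12 probe sets in all, among 17097 genes tested. Sdc1 was not analysed here.

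Basal cells of tail epidermis were profiled on 9 arrays, 4 days after a wound of 3 mm was punched in CD1 mice, an outbred strain. The sort kept cells with surface α6 integrin, a marker of basal cells, and without CD34, a marker of the hair follicle bulge. Leading edge cells came from a 4 mm punch around the wound and were in addition gated as positive for α5 integrin, and proliferative hub cells came from a 6 mm punch and were gated as negative for it. Control cells came from unwounded skin far away on the tail, and no α5 integrin gate is stated for them. Each group held 3 arrays, an array took 300 cells, and the tissue of 5 mice was pooled. No genotype or drug differed between groups. The position of a cell and the α5 integrin gate cannot be told apart in this design. The labels describe the arrays as biological replicates and the methods as technical ones, so the p-values rest on a spread between samples that may be technical only.

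Hyaluronan synthases sit in the plasma membrane, join 2 activated sugars (UDP-glucuronic acid and UDP-N-acetylglucosamine) and push the growing chain out of the cell. Hyaluronidases cut the chain into shorter pieces, which are taken up and broken down further. CD44 is the main receptor for hyaluronan on keratinocytes, and its transcript is alternatively spliced. Syndecans are transmembrane proteins that carry heparan sulfate chains, bind growth factors and matrix proteins, and act beside integrins in cell adhesion. In skin, hyaluronan fills the space between epidermal cells, and it is known to accumulate there after wounding.

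Values below are log2 signals after RMA, the normalization that the authors applied, and a difference of 1 is a 2-fold difference. Differences are given with their standard error from limma over all 17097 genes, and a gene was called where its Benjamini-Hochberg adjusted p was under 0.05. The 23 probe sets for nonspecific background read from 3.66 to 8.61 with a median of 4.66, and values inside that range are less certain. Of the sort genes, Itga5, which encodes α5 integrin, read 9.06 to 9.17 at the leading edge, 6.46 to 7.47 in hub cells and 6.23 to 6.50 in control cells. Itga6, which encodes the α6 integrin used to sort all groups, was not level between them, and was higher at the leading edge by 0.47 ± 0.06 over hub and 0.69 ± 0.06 over control (adjusted p = 0.0016 and 5.6e-05). Cd34 read 4.50 to 4.95 on all arrays, near the background median. The basal keratins Krt5 and Krt14 differed little between groups, with 13.23 to 13.34 for Krt5 over all 9 arrays, whereas Itgb4, another of the 5 basal markers, was higher at the leading edge by 0.38 ± 0.06 over hub and 0.34 ± 0.06 over control (adjusted p = 0.0038 and 0.0033). Arrays within a group correlated at 0.988 to 0.995. Because each array is a bulk sample, fewer cells of a type and less RNA per cell cannot be told apart.

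Promoter windows were looked up for the 7 measured genes in RefSeq (GRCm38.p6) and found for 5, without Has2 and Has3. Those of Cd44 and Sdc4 are shown because they are the surface receptor and the syndecan measured here, whose signals were highest in different groups. Cd44 was highest at the leading edge. Sdc4 was highest in control cells, although no difference was called on its probe set with the highest mean. Each run is the 250 bases before the transcription start, written 5′ to 3′ on the gene's strand, from chr2:102901666-102901915 (minus strand) for Cd44 and chr2:164443189-164443438 (minus strand) for Sdc4. Capitals mark the letters GGGCGG (the GC box) or TATAA, searched on both strands and chosen after these windows were read.

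Cd44: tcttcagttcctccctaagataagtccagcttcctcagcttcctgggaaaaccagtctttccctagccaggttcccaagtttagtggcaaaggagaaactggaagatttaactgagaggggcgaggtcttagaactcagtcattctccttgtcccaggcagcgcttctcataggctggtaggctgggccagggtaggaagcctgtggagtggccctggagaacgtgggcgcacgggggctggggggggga

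Sdc4: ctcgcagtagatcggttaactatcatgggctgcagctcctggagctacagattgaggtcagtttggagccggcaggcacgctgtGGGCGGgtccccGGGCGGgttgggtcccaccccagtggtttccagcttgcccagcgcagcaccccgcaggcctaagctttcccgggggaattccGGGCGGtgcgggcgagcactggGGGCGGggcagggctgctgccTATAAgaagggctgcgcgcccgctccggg

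The Sdc4 window held 4 GC boxes and a TATAA from 29 to 25 bases before the start, whereas the Cd44 window held neither. Of the 5 windows found, 3 held a GC box (Sdc4, Hyal2 and Hyal1) and 1 held TATAA (Sdc4). Of 32851 windows of this length, 32.7% held a GC box and 22.8% held TATAA. Guanine and cytosine made up 68.0% of the Sdc4 window and 56.4% of the Cd44 window, against a median of 52.4% over all windows. The AP-1 letters TGANTCA, the TEAD letters ACATTCC and the STAT letters TTCNNNGAA, searched on both strands, were in 0 of the 5 windows and in 6.75%, 3.25% and 7.02% of all windows. These matches describe letters in a short window and are not binding sites.

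Has2 and Has3 were the members with the largest differences, and the order of the groups differed between them. Has2 was high at the leading edge alone, whereas Has3 was low in control cells, higher in hub cells and highest at the leading edge. Has1 differed little between the groups. Of the 7 measured genes, 4 were higher than in hub cells at the leading edge (Has2, Has3, Hyal1 and Cd44) and 0 were lower, where 10.6% of all genes were called (5.39% higher and 5.23% lower). Against control cells, 4 were higher at the leading edge (Has2, Has3, Hyal2 and Cd44), where 22.8% of all genes were called (11.9% higher and 10.8% lower). Between hub and control cells, Has3 alone was called, where 7.28% of all genes were (4.16% higher and 3.12% lower). Ranges of arrays were also compared. The leading edge arrays lay above all hub arrays for 5 of the 7 genes and below for 0, where 30% of all genes had ranges that did not overlap (14.5% higher and 15.4% lower). Against control cells the leading edge arrays lay above for 4 genes and below for 2 (Has1 and Sdc4), where 36.2% of all genes did not overlap (20% higher and 16.2% lower). The hub arrays lay above the control arrays for 1 gene and below for 2 (Hyal1 and Sdc4), where 23.8% of all genes did not overlap (14.4% higher and 9.41% lower).

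**Figure D1:**
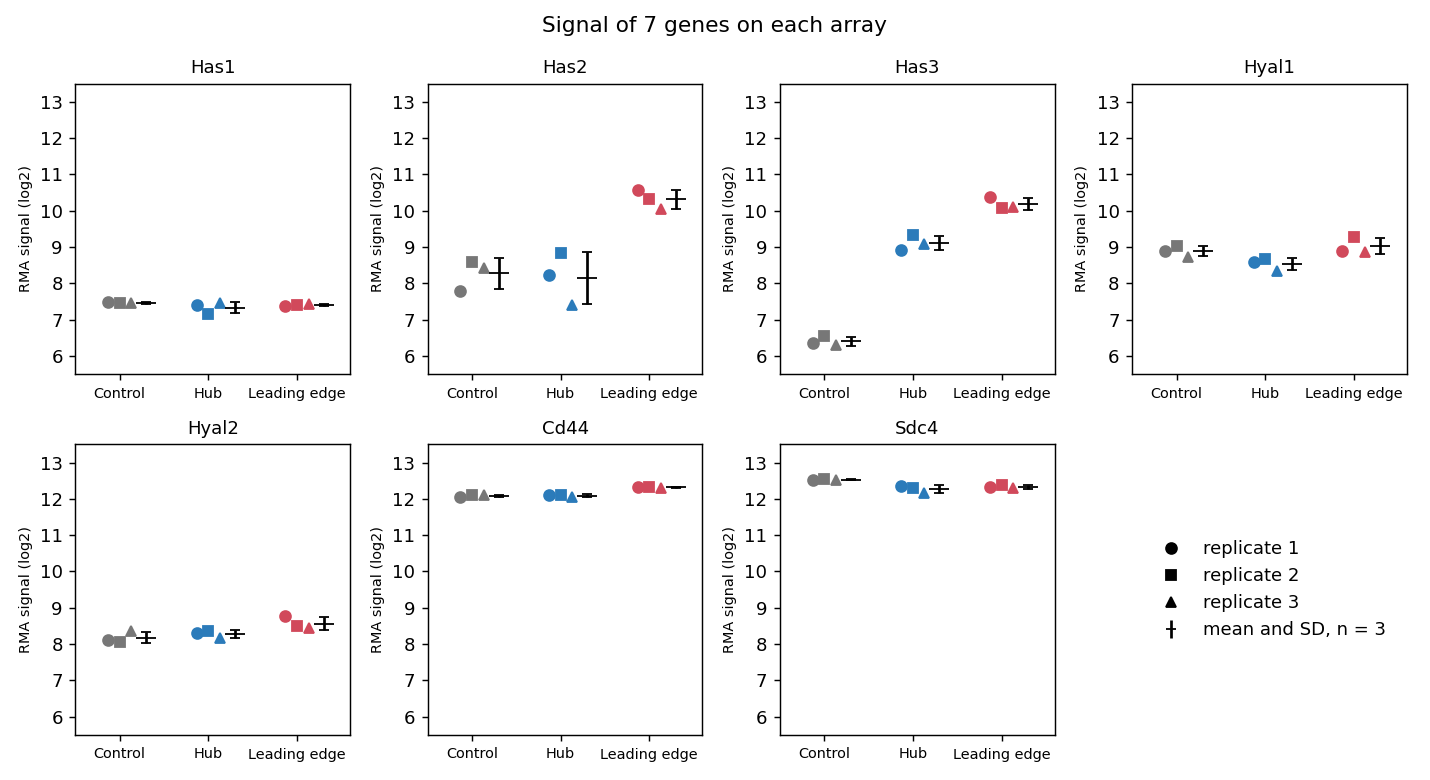
Log2 RMA signal of Has1, Has2, Has3, Hyal1, Hyal2, Cd44 and Sdc4 (vertical axis, the same in all panels) on each of the 9 arrays, by group. Points are arrays, their shape gives the replicate number, and the bar gives the mean and SD (n = 3). Has2 sits at 10.04 to 10.56 at the leading edge against 7.39 to 8.82 elsewhere, and Has3 steps up from 6.31 to 6.54 in control cells through 8.93 to 9.33 in the hub to 10.06 to 10.37 at the leading edge.

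Has2 encodes the synthase that makes very long hyaluronan chains and is needed for heart development in the embryo. It read 10.56, 10.33 and 10.04 in leading edge replicates 1 to 3, 8.22, 8.82 and 7.39 in hub replicates 1 to 3, and 7.80, 8.59 and 8.43 in control replicates 1 to 3. Every leading edge array was above every other array, while the hub and control arrays overlapped. All control arrays and hub replicates 1 and 3 lay inside the background range, so the folds below are less certain than their errors show. The mean was 10.31 ± 0.26 at the leading edge, 8.15 ± 0.72 in hub cells and 8.27 ± 0.42 in control cells (SD, n = 3 each). Has2 was thus 2.17 ± 0.33 higher at the leading edge than in hub cells (4.49-fold, limma adjusted p = 0.0029) and 2.04 ± 0.33 higher than in control cells (4.10-fold, adjusted p = 0.0017). Hub and control cells differed by -0.13 ± 0.33 (adjusted p = 0.901), with a 95% confidence interval from -0.88 to 0.62. These values leave room for a moderate difference either way.

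A second probe set of Has2 gave the same order. It read 9.37, 9.53 and 9.47 at the leading edge, 6.69, 8.09 and 6.59 in hub cells and 7.63, 7.47 and 7.11 in control cells, and all its hub and control values lay inside the background range. It differed by 2.33 ± 0.34 between leading edge and hub (adjusted p = 0.0025, every probe set tested on its own) and by 2.05 ± 0.34 between leading edge and control (adjusted p = 0.0020). Hub replicate 2 was the highest hub array on both Has2 probe sets, and it was also the highest hub array for Itga5, at 7.47 against 6.46 and 6.81. Of the other hub arrays, replicate 3 was above replicate 1 for Itga5 and below it on both Has2 probe sets. The part of α5 integrin-positive cells in the hub values of Has2 was not tested. Without hub replicate 2, the first probe set differed by 2.50 between leading edge and hub (adjusted p = 0.0019), and the second differed by -0.76 between hub and control (adjusted p = 0.029), a call that was absent with all 9 arrays (-0.28, adjusted p = 0.760).

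Has3 encodes a synthase of epidermal keratinocytes that makes shorter chains. It read 10.37, 10.06 and 10.10 at the leading edge, 8.93, 9.33 and 9.08 in the hub, and 6.37, 6.54 and 6.31 in control cells, so that no groups overlapped. The means were 10.18 ± 0.17, 9.11 ± 0.20 and 6.41 ± 0.12 (SD, n = 3 each). Has3 rose by 2.71 ± 0.12 from control to hub (6.52-fold, limma adjusted p = 5.1e-06) and by 3.77 ± 0.12 from control to leading edge (13.7-fold, adjusted p = 1.9e-07). From hub to leading edge it rose by 1.06 ± 0.12 (2.09-fold, adjusted p = 0.00064). The control values lie inside the range of the nonspecific background probe sets, and 1 probe set stood for the gene.

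Has1, the remaining synthase, was called in none of the 3 comparisons. It read 7.38, 7.41 and 7.44 at the leading edge, 7.39, 7.17 and 7.45 in hub cells and 7.50, 7.45 and 7.46 in control cells, all inside the background range. The leading edge minus hub difference was 0.07 ± 0.08, that to control was -0.06 ± 0.08, and hub minus control was -0.13 ± 0.08 (adjusted p = 0.703, 0.675 and 0.443), with all 95% confidence intervals between -0.32 and 0.26. Its 3 leading edge arrays all lay below its 3 control arrays, by a margin that is small on this scale.

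**Figure D2:**
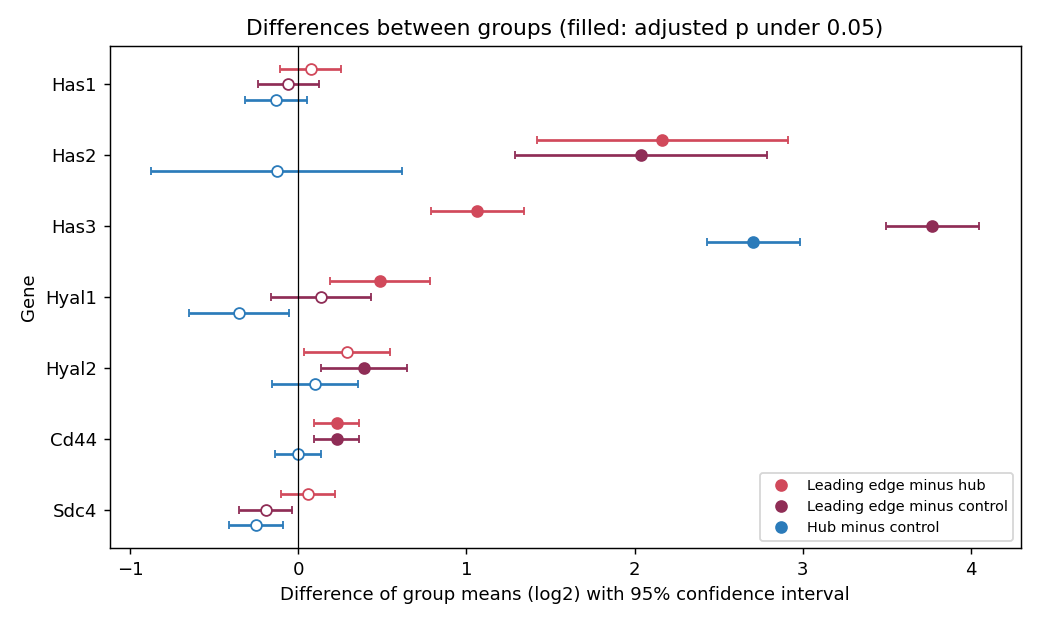
Differences of group means in log2 units (horizontal axis) for the 7 genes (vertical axis) in the 3 comparisons, with 95% confidence intervals from limma, filled where the adjusted p was under 0.05. Has2 differs at the leading edge from both other groups by 2.17 and 2.04, Has3 differs in all 3 comparisons, and the intervals of Hyal1, Hyal2, Cd44 and Sdc4 lie within 1 unit of 0.

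The genes whose pattern was most like that of each synthase were found by the root mean square difference of gene-centred log2 values over the 9 arrays, for the members whose group means ranged over at least 1 unit (Has2 and Has3). For Has3 the nearest was Pdpn, which encodes the membrane glycoprotein podoplanin, at 0.15. Pdpn had group means of 8.50 in control cells, 10.96 in hub cells and 12.11 at the leading edge. Smim3 (0.26) and Procr, which encodes the protein C receptor (0.27), followed. For Has2 the nearest were Reep1 (0.35), Antxr2, which encodes an anthrax toxin receptor (0.40), and Tmem163 (0.42). These distances describe the same 9 arrays and carry no test.

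The group means of Hyal1 and Hyal2 spanned 0.48 and 0.39, less than those of Has2 (2.17) and Has3 (3.77) and more than those of Has1 (0.13). Hyal1 encodes an enzyme that digests hyaluronan in lysosomes. It read 8.90, 9.27 and 8.88 at the leading edge, 8.58, 8.68 and 8.34 in hub cells and 8.89, 9.02 and 8.74 in control cells. The hub arrays lay below all others, and the leading edge and control arrays overlapped. Hub replicates 1 and 3 lay inside the background range. Hyal1 was 0.48 ± 0.13 higher at the leading edge than in hub cells (1.40-fold, limma adjusted p = 0.0469), and this call was lost on removal of any of the 3 leading edge or 3 hub arrays or of control replicate 1 (0.36 to 0.56, adjusted p from 0.0578 to 0.153). Hub and control cells differed by -0.35 ± 0.13 (adjusted p = 0.168), and leading edge and control cells by 0.13 ± 0.13 (adjusted p = 0.548), with a 95% confidence interval from -0.16 to 0.43.

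Hyal2 encodes a hyaluronidase that is anchored at the cell surface and cuts long chains into fragments. It read 8.77, 8.49 and 8.43 at the leading edge, 8.30, 8.36 and 8.16 in hub cells and 8.11, 8.06 and 8.35 in control cells. The leading edge arrays lay above all others, and the hub and control arrays overlapped. Hyal2 was 0.39 ± 0.11 higher at the leading edge than in control cells (1.31-fold, adjusted p = 0.0344). The Hyal2 call was lost without leading edge replicate 1 or 2, hub replicate 1, or control replicate 1 or 2 (0.29 to 0.43, adjusted p from 0.051 to 0.105). Leading edge and hub differed by 0.29 ± 0.11 (adjusted p = 0.157) and hub and control by 0.10 ± 0.11 (adjusted p = 0.737). All Hyal2 values except that of leading edge replicate 1 lay inside the background range.

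Cd44 read above the background range in all groups and was highest at the leading edge on each of its 4 probe sets, although the size of the difference depended on the probe set. The probe set with the highest mean (1434376_PM_at) read 12.32, 12.32 and 12.30 at the leading edge, 12.12, 12.10 and 12.04 in hub cells and 12.05, 12.10 and 12.11 in control cells. The leading edge arrays lay above all others, and the hub and control arrays overlapped. It was 0.23 ± 0.06 higher at the leading edge than in hub cells (1.17-fold, limma adjusted p = 0.0404) and 0.23 ± 0.06 higher than in control cells (1.17-fold, adjusted p = 0.0225). The call against hub was lost on removal of any of the 6 arrays compared or of control replicate 2 (0.21 to 0.24, adjusted p from 0.0567 to 0.139), and the call against control without leading edge replicate 2 or 3 or control replicate 1 or 2 (0.21 to 0.23, adjusted p from 0.0507 to 0.0672). The highest value of any probe set on any array was 13.7.

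The other 3 probe sets of Cd44 were tested with every probe set on its own, which called 9.54% between leading edge and hub, 21.7% between the edge and control cells, and 6.41% of probe sets for hub against control. Probe set 1423760_PM_at, with means of 12.00 at the leading edge, 11.73 in hub cells and 11.75 in control cells, differed much as the first did, by 0.28 ± 0.07 from hub and by 0.25 ± 0.07 from control (adjusted p = 0.0294 and 0.022). The call against hub was lost without leading edge replicate 1 or 2 or any hub array (adjusted p up to 0.104), and the call against control without leading edge replicate 1 or 2 or control replicate 1 or 2 (adjusted p up to 0.071). Probe set 1452483_PM_a_at read 11.24, 11.28 and 11.23 at the leading edge, 10.61, 10.78 and 10.46 in hub cells and 10.76, 10.69 and 10.57 in control cells. It differed by 0.63 ± 0.09 from hub (1.55-fold, adjusted p = 0.0025) and by 0.58 ± 0.09 from control (adjusted p = 0.0017), and both calls held on removal of each of the 9 arrays.

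Probe set 1443265_PM_at showed a pattern of its own. It read 10.55, 10.41 and 10.32 at the leading edge, 9.48, 9.16 and 9.35 in hub cells and 10.06, 9.91 and 9.87 in control cells, so that no groups overlapped and the hub was lowest. It was 1.10 ± 0.10 higher at the leading edge than in hub cells (2.14-fold, adjusted p = 0.00026), 0.48 ± 0.10 higher than in control cells (adjusted p = 0.0083), and lower in the hub than in control cells by a difference of -0.61 ± 0.10 (adjusted p = 0.0082). All 3 calls held when any single array was left out, with a largest adjusted p of 0.0328. The difference between probe sets was not itself tested, and which parts or splice forms of the transcript they read was not analysed here.

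**Figure D3:**
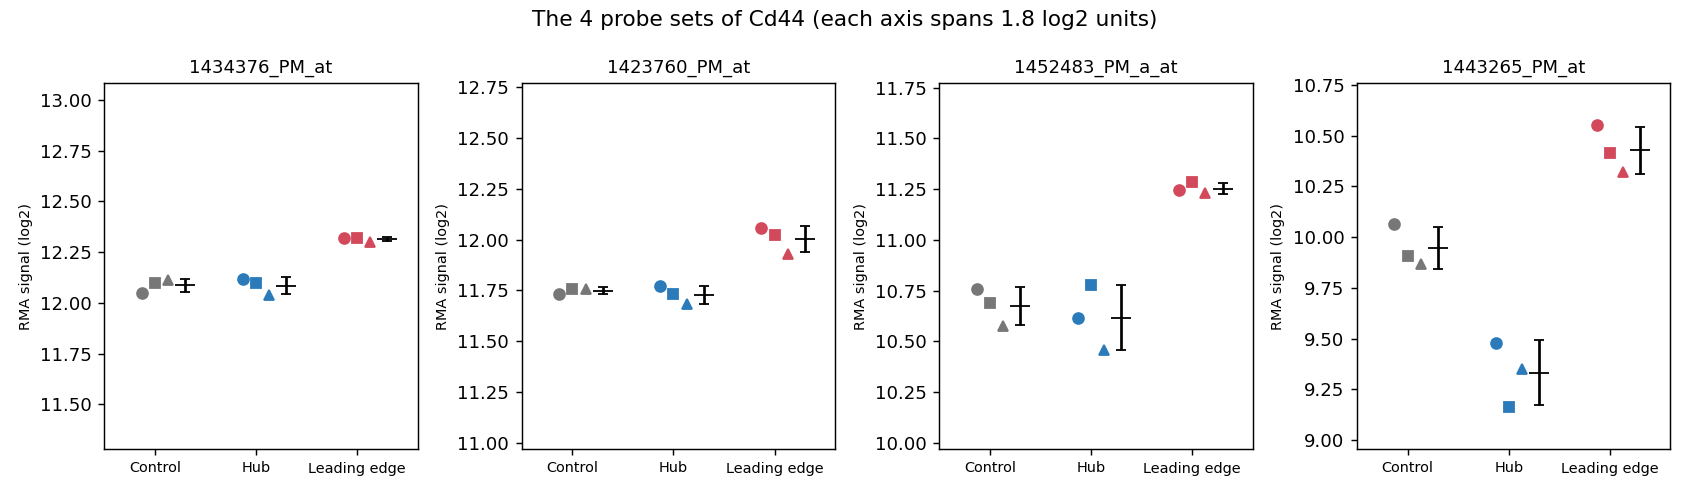
Log2 RMA signal of the 4 probe sets of Cd44 (a panel each, with vertical axes of equal length that start at different levels) on each of the 9 arrays, by group, with mean and SD (n = 3). The leading edge is highest in every panel, by 0.23 over the hub on the first and by 1.10 on the last, where the hub is also below control cells.

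Sdc4 encodes syndecan 4, which gathers at focal adhesions and binds fibronectin together with integrins. Its values lay above the background range in all groups and, unlike those of Cd44, were highest in control cells. It read 12.32, 12.37 and 12.29 at the leading edge, 12.35, 12.30 and 12.15 in hub cells and 12.51, 12.54 and 12.51 in control cells, so that the wound groups overlapped each other and lay below control. The differences were -0.19 ± 0.07 for leading edge against control (limma adjusted p = 0.0812) and -0.25 ± 0.07 for hub against control (adjusted p = 0.0645), both short of the threshold. Both were called when the variance was fitted with a trend (adjusted p = 0.0086 and 0.0054) and when the probe sets of a gene were averaged (adjusted p = 0.0338 and 0.0322). Leading edge and hub differed by 0.06 ± 0.07 (adjusted p = 0.731), with a 95% confidence interval from -0.10 to 0.22.

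The second probe set of Sdc4 read 11.06, 11.04 and 10.97 at the leading edge, 11.05, 11.02 and 10.87 in hub cells and 11.25, 11.24 and 11.35 in control cells. The order of the groups was the same, and here both wound groups passed the threshold against control cells, by -0.26 ± 0.07 (adjusted p = 0.036) and -0.30 ± 0.07 (adjusted p = 0.0454). Neither call was stable: leaving out single arrays took the adjusted p for leading edge against control to between 0.0347 and 0.111, and for hub against control to between 0.0592 and 0.160.

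Taking the 7 genes side by side, the leading edge had a median difference of 0.29 to hub and 0.23 to control cells, and hub minus control had a median of -0.13. The medians over all 17097 genes were -0.01, 0.02 and 0.03. The comparisons of the wound groups with control share the 3 control arrays, and the list is short, so these medians only describe it.

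Genes around the members were taken from 7 lists of 120 genes, of which 106 were measured. Of these, 24 were higher than in hub cells at the leading edge and 5 lower, 33 were higher than in control cells at the leading edge and 10 lower, and 7 were higher and 2 lower in the hub than in control cells. Over all genes 10.6%, 22.8% and 7.28% were called in these comparisons, and the count for hub against control lies near that share. The medians of these 106 genes were 0.09, 0.09 and 0.03. The 106 include Pigq, which was matched through the shared name Gpi1 in place of a listed isomerase gene.

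Of the 12 genes on the precursor enzyme list, 5 were higher than in hub cells at the leading edge and 0 lower, with a median of 0.28. Against control cells 7 were higher and 0 lower, with a median of 0.44. Pigq, counted among the 12, shares the name Gpi1 with a listed isomerase gene and is not a precursor enzyme. Pigq was called in no comparison (0.03 ± 0.09, 0.20 ± 0.09 and 0.18 ± 0.09) but enters these medians and the shares below. Called genes made up 41.7% and 58.3% of the list, against 10.6% and 22.8% of all genes. Gfpt1 encodes the rate-limiting enzyme of the hexosamine pathway, which leads to UDP-N-acetylglucosamine. It rose by 0.96 ± 0.19 over hub and 1.21 ± 0.19 over control (adjusted p = 0.0107 and 0.0013). Pgm3 and Uap1 act later in the same pathway. Pgm3 rose by 0.68 ± 0.08 and 1.12 ± 0.08 in the same comparisons, and Uap1 by 1.06 ± 0.19 and 0.71 ± 0.19. All hub and control values of Gfpt1 and Pgm3 lay inside the background range. Uap1 against control was not called without leading edge replicate 1 or 3 or control replicate 1 or 2 (adjusted p up to 0.066), and the second probe set of Pgm3 gave -0.23 and -0.21. Ugdh makes UDP-glucuronic acid, the other precursor, and rose by 0.62 ± 0.08 and 0.86 ± 0.08. The hexokinase gene Hk2 rose by 0.68 ± 0.11 and 0.49 ± 0.11. Gnpnat1, Ugp2 and Renbp of the same list read lower at the leading edge in both comparisons, with no call. Gnpnat1 differed by -0.29 ± 0.14 from hub and -0.27 ± 0.14 from control (limma adjusted p = 0.254 and 0.199). All its leading edge arrays lay below all its hub arrays.

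Among the other hyaluronidases and clearance genes, 2 of 11 were higher than in hub cells at the leading edge and 0 lower, 3 were higher than in control cells, and 2 were higher in the hub than in control cells. That is 18.2%, 27.3% and 18.2% of a short list, against 10.6%, 22.8% and 7.28% of all genes. Stab1 encodes stabilin 1, a scavenger receptor of macrophages and some endothelia. It read 11.06 to 11.26 at the leading edge, 10.26 to 10.65 in hub cells and 9.04 to 9.55 in control cells, with differences of 0.76 ± 0.15 over hub and 1.82 ± 0.15 over control. Lyve1, a hyaluronan receptor of lymphatic vessels, was higher than in control cells at the leading edge (1.41 ± 0.34, adjusted p = 0.0145) and in the hub (1.53 ± 0.34, adjusted p = 0.0259). Lyve1 lost the first call without leading edge replicate 1 (adjusted p = 0.0588) and the second without hub replicate 2 or 3 or control replicate 3 (adjusted p up to 0.0794). Cemip2, which is named as a cell surface hyaluronidase, rose by 0.65 ± 0.12 over hub and 0.53 ± 0.12 over control, with 1 and 2 of its 3 probe sets called. The Cemip2 values behind these differences all lay inside the background range. Of the 18 other hyaluronan-binding proteins, 0 were higher and 1 was lower (5.56%, below the share of all genes) in each leading edge comparison. Those were C1qbp against hub (-0.28 ± 0.07) and Habp4 against control (-0.45 ± 0.11), each called with 1 of 2 probe sets, and their calls did not survive the loss of single arrays, 4 for C1qbp and 2 for Habp4 (adjusted p as high as 0.111 and 0.0609).

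Partners of CD44 included proteins that join its tail to the cytoskeleton, factors that splice its transcript and proteases that cleave it. Of 14 measured, 4 were higher than in hub cells at the leading edge and 0 lower, 5 were higher and 1 lower than in control cells, and 1 was higher in the hub than in control cells. The share called was 28.6%, 42.9% and 7.14%, against 10.6%, 22.8% and 7.28% of all genes. Msn, which encodes moesin, rose by 0.47 ± 0.08 over hub and 0.66 ± 0.08 over control. Ank1, which encodes an ankyrin, rose by 0.92 ± 0.15 and 1.21 ± 0.15, with all its values inside the background range. The membrane protease gene Mmp14 rose by 0.42 ± 0.09 and 0.38 ± 0.09, the former lost without leading edge replicate 2 or hub replicate 1 (adjusted p up to 0.0541). Adam10 was higher than in control cells at the leading edge (0.66 ± 0.09) and in the hub (0.47 ± 0.09). Mmp9, a secreted protease that can dock on CD44, had the largest difference of the list, with group means of 12.99 at the leading edge, 8.80 in hub cells and 7.04 in control cells.

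Of the 11 other syndecans and syndecan partners, 4 were higher than in hub cells at the leading edge and 0 lower, with a median of 0.37, and 8 were higher and 0 lower than in control cells, with a median of 0.50. Called genes were 36.4% and 72.7% of this list, against 10.6% and 22.8% of all genes. Rhog, a small GTPase linked to syndecan 4, rose by 0.65 ± 0.08 over hub and 0.57 ± 0.08 over control. The PDZ protein genes Gipc1 and Cask were higher than in control cells at the leading edge (0.86 ± 0.10 and 0.62 ± 0.08) and in the hub (0.51 ± 0.10 and 0.38 ± 0.08). The hub call of Gipc1 was lost without hub replicate 1 or 2 (adjusted p = 0.0523 at most), and that of Cask without any hub array or control replicate 1 or 2 (adjusted p = 0.0933 at most). Dnm2, which encodes a dynamin, rose by 0.72 ± 0.11 over control, with 2 of 7 probe sets called, and Pdcd6ip by 0.56 ± 0.10, with probe sets from -0.85 to 0.56. Sdc3 and Sdc2, the other syndecans on the list, were picked after their values were seen. Sdc3 rose by 0.44 ± 0.09 over control (adjusted p = 0.0053) and by 0.41 ± 0.09 over hub (adjusted p = 0.0158), the latter lost without leading edge replicate 2 or 3 or hub replicate 3 (adjusted p up to 0.0674). Sdc2 read 7.86 to 8.07 at the leading edge, 7.05 to 7.87 in hub cells and 7.47 to 8.28 in control cells, with no call.

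**Figure D4:**
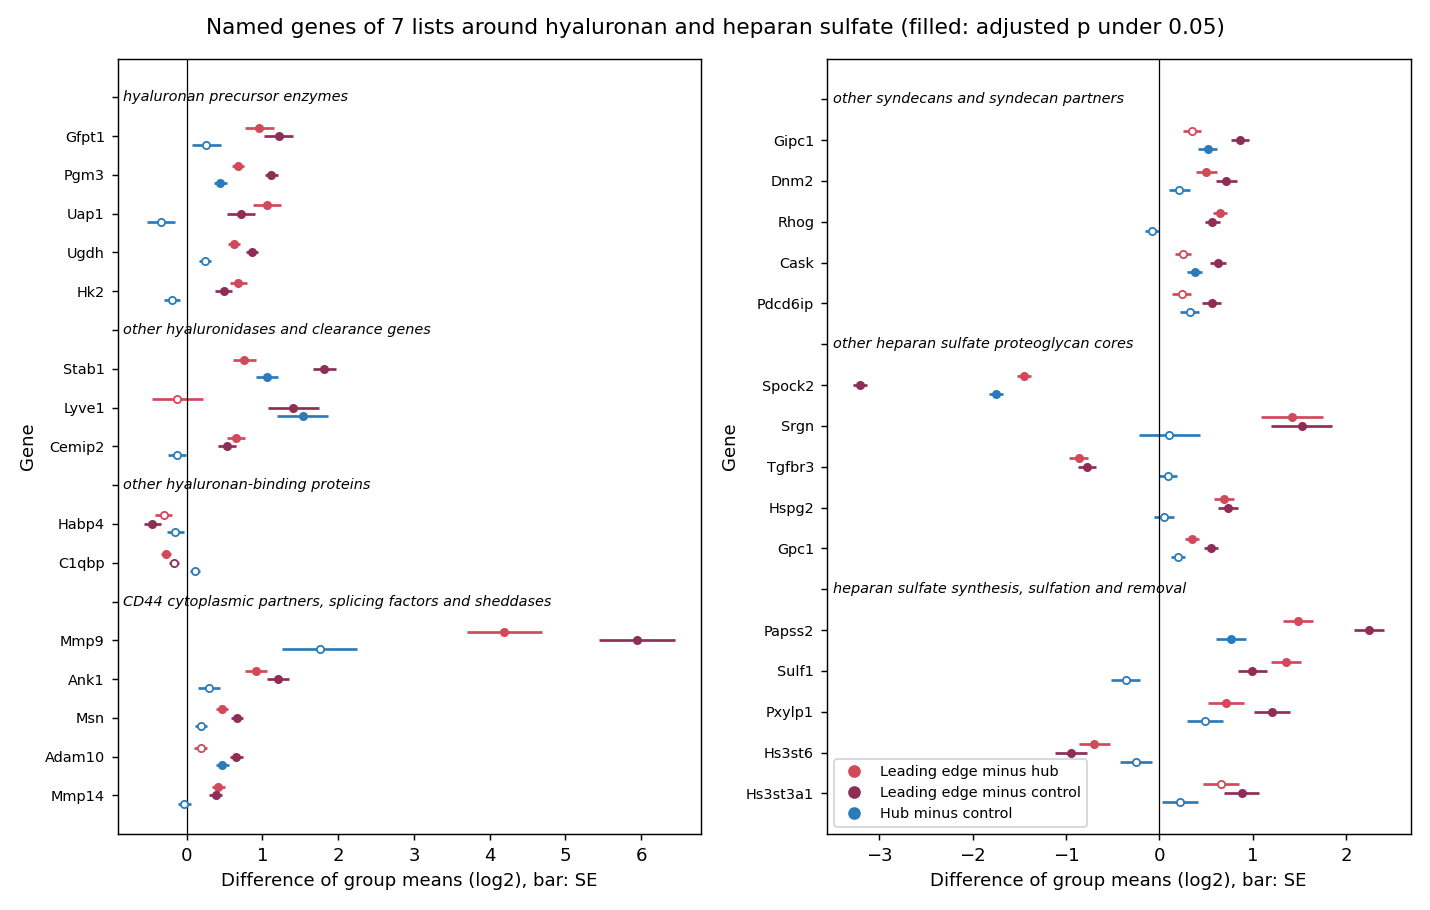
Differences of group means in log2 units (horizontal axis, bars give the SE) for up to 5 named genes of each of 7 lists around hyaluronan and heparan sulfate (vertical axis), in the 3 comparisons, filled where the adjusted p was under 0.05. The axes of the panels differ. The named precursor enzymes, picked as called genes with the largest differences, lie to the right of 0 at the leading edge, by 0.49 to 1.21. Gnpnat1, Ugp2 and Renbp of that list read lower there and are not shown. Spock2 lies farthest to the left, at -3.20 for leading edge against control.

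Other core proteins that carry heparan sulfate went both ways. In the order of comparisons used above, 50%, 66.7% and 16.7% were called, against 10.6%, 22.8% and 7.28% of all genes. Of 12, 4 were higher than in hub cells at the leading edge and 2 lower, 4 were higher and 4 lower than in control cells, and 0 were higher and 2 lower in the hub than in control cells. Spock2, which encodes testican 2, read 7.11, 7.14 and 7.17 at the leading edge, 8.71, 8.51 and 8.57 in hub cells and 10.28, 10.37 and 10.39 in control cells. The groups did not overlap, and they stood in the reverse order to those of Has3. Spock2 fell by 1.45 ± 0.07 from hub to leading edge and by 1.75 ± 0.07 from control to hub, on 1 of its 2 probe sets. Its leading edge arrays and hub replicates 2 and 3 lay inside the background range, so these falls are less certain than their errors show. Tgfbr3, which encodes betaglycan, was lower at the leading edge than in hub cells (-0.87 ± 0.10) and in control cells (-0.78 ± 0.10). Hspg2, which encodes perlecan, was higher at the leading edge by 0.69 ± 0.11 and 0.73 ± 0.11, and Gpc1, which encodes glypican 1, by 0.35 ± 0.07 and 0.55 ± 0.07. Gpc1 against hub was not called without leading edge replicate 2 or hub replicate 1 or 2 (adjusted p up to 0.0586). Srgn, which encodes serglycin of blood cell granules, rose by 1.42 ± 0.33 over hub and 1.52 ± 0.33 over control. It read 8.68 in leading edge replicate 1 against 7.09 and 7.46 in replicates 2 and 3, and its call against hub was lost without any 1 of the 3 hub arrays (adjusted p up to 0.0819).

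Of the 28 genes that build, sulfate or trim heparan sulfate, 5 were higher than in hub cells at the leading edge and 2 lower, 6 were higher and 4 lower than in control cells, and 1 was higher and 0 lower in the hub than in control cells. That is 25%, 35.7% and 3.57% of the list, against 10.6%, 22.8% and 7.28% of all genes, so the last lies below its share. Papss2 makes the sulfate donor of all sulfation steps. It read 9.76, 10.10 and 10.15 at the leading edge, 8.16, 8.64 and 8.78 in hub cells and 7.85, 7.65 and 7.78 in control cells. The groups did not overlap. It rose by 1.48 ± 0.16 over hub and 2.24 ± 0.16 over control, with 3 of 4 probe sets called in each. Papss1, the other such enzyme gene on the list, was not called, at -0.30 ± 0.09 against hub and -0.21 ± 0.09 against control. The leading edge arrays of Papss1 all lay below its hub arrays. Sulf1, which removes sulfate groups from heparan sulfate outside the cell, rose by 1.35 ± 0.16 and 0.99 ± 0.16 on 1 of 3 probe sets. Pxylp1, a phosphatase that acts on the linkage region, and the sulfotransferase gene Hs3st3a1 were higher than in control cells (1.20 ± 0.19 and 0.88 ± 0.19), both from low levels. A further sulfotransferase gene, Hs3st6, was lower than in control cells (-0.95 ± 0.17), with all its values inside the background range.

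Marker genes of other cell types are given here, since fibroblasts, leukocytes and vessels also express hyaluronan genes. Of 13 myeloid markers, 2 were higher than in hub cells at the leading edge and 0 lower, 5 were higher than in control cells, and 1 (S100a8) was higher in the hub than in control cells, where 10.6%, 22.8% and 7.28% of all genes were called. S100a8 and S100a9, which wounded keratinocytes also make, differed by 2.51 ± 0.34 and 1.48 ± 0.42 between hub and control (adjusted p = 0.0026 and 0.0661). The mean log2 level of the list per array was 6.68 to 7.26 at the leading edge, 6.49 to 6.56 in hub cells and 6.01 to 6.27 in control cells. The leukocyte marker Ptprc read 4.06 to 4.81 on all arrays, near the background median. The leading edge arrays differed in Lyz2, with 8.25, 5.36 and 7.12 in order of replicate, against 5.19 to 5.38 in the hub. The part of myeloid cells in the synthase differences was not tested.

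Of 9 endothelial markers, 0 were called in any comparison by limma, with 0, 2 and 1 at an unadjusted p under 0.05 in the order of comparisons used above. For this list and those below, 10.6%, 22.8% and 7.28% of all genes were called in these comparisons. Their mean level was 6.41 to 7.52 at the leading edge, 6.37 to 6.88 in hub cells and 6.08 to 6.34 in control cells. The vessel marker Cdh5 read 9.73 in leading edge replicate 1 and 8.39 and 8.42 in hub replicates 2 and 3, and Lyve1 was highest on leading edge replicate 1 (9.14) and hub replicate 2 (9.42) within their groups. The part of vessel cells in the Lyve1 and Stab1 differences was not tested. Of 9 fibroblast markers, 0 were higher than in hub cells at the leading edge and 1 lower (Postn, -1.31 ± 0.17), Postn and Dcn were lower and Fbln1 higher than in control cells, Dcn was lower and Fbln1 higher in the hub than in control cells, and the list's mean level was 6.93 to 7.01, 7.08 to 7.19 and 7.12 to 7.20 in leading edge, hub and control cells. Called genes made up 11.1%, 33.3% and 22.2% of the fibroblast list in the same order. Levels within the list were uneven: Pdgfra, Col1a2 and Lum read 4.52 to 5.07 over all 9 arrays, near the background median, while Fbln1 read 9.69 to 11.23 and Postn 9.53 to 11.75. Col1a1 read 8.12, 6.87 and 7.10 at the leading edge, 6.62 to 6.93 in hub cells and 6.65 to 6.77 in control cells, with no call. The part of fibroblasts in the synthase differences was not tested. Of the 5 Langerhans cell markers, H2-Ab1 alone was called, higher at the leading edge (20%, 20% and 0% of the list). T cell markers had 0 of 5 called in any comparison by limma, and 0 at an unadjusted p under 0.05. Of 5 suprabasal keratinocyte markers, Krt1 and Krt10 were lower at the leading edge than in hub cells, and also lower than in control cells, whereas Ivl was higher than in control cells (0.57 ± 0.14, adjusted p = 0.0161). Called genes made up 40%, 60% and 0% of the suprabasal list. The mean list level was 7.98 to 8.51 at the leading edge, 8.84 to 8.92 in hub cells and 8.63 to 8.96 in control cells.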

How the data were processed

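Gene expression was measured on Affymetrix mouse genome PM strip arrays, 1 per sample, from amplified cDNA of 300 sorted cells. The authors deposited log2 signals normalized with RMA, which corrects background, gives the arrays a shared distribution and summarises probes into probe sets. The sources used here do not give the version of RMA. Such values hide a change in total RNA, and dim differences are compressed. No read depth applies, and the number of arrays limits the precision. Array medians were 6.47 to 6.53.

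Of 45141 probe sets, 28898 had a single gene symbol in the platform annotation, and the one with the highest mean stood for each of 17097 genes. All 9 arrays entered a group means model (limma 3.58.1, R 4.3.3, two-sided, Benjamini-Hochberg adjusted p under 0.05), tested on simulated data. Other probe sets of the members were tested with every probe set on its own. Groups came from the deposited titles. The members and lists were chosen with earlier results of these data known. Named genes were the members, up to 5 called genes with the largest difference per list, and the 3 nearest patterns. Alternatives were a replicate block, a variance trend, array weights, other normalizations, a filter on dim genes, other probe set rules, only the arrays compared, fold rules and leave-one-out. The study's rule was read as a change above 2-fold in every pair with the same replicate number. Promoter windows came from RefSeq (GRCm38.p6).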

Additional observations from a re-analysis of the deposited data

How the results depend on the processing

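Has2 at the leading edge against either group and Has3 in all 3 comparisons stayed called in the same direction under the 18 alternatives that refit the model, with Has2 against hub from 1.79 to 2.50 and Has3 against control from 3.67 to 3.84. Over the 7 genes and 3 comparisons, 335 of 378 alternative values kept direction and side of the threshold. The share of all genes called was not counted for the alternative fits and fold rules whose counts follow. Those counts therefore cannot be set against it. The called count of 4 for leading edge against hub became 2 with only the 6 arrays compared or with a 2-fold minimum, and 1 (Has2) under the study's rule of more than 2-fold in each pair, which Has3 missed in replicate 2 (10.06 against 9.33). Leaving out single arrays gave 2 to 4, with 2 on removal of each leading edge or hub array. The count of 4 for leading edge against control became 2 with the replicate block, the 6 arrays, the 2-fold minimum or the study's rule, and 2 to 4 on leaving out single arrays, with 2 without leading edge replicate 2 or control replicate 1 or 2. It became 5 with a variance trend or the mean of probe sets, where Sdc4 was called lower (adjusted p = 0.0086 and 0.0338). The count of 1 for hub against control became 2 with the replicate block (Hyal1, -0.35, adjusted p = 0.047), a variance trend or the mean of probe sets (Sdc4, adjusted p = 0.0054 and 0.0322). With the block, Cd44 missed the threshold against hub and control (adjusted p = 0.0857 and 0.0515), as did Hyal2 against control (adjusted p = 0.0612). Same-numbered arrays deviated with correlations of -0.15 to 0.05. With 3 arrays per group, these values cannot settle whether such arrays shared mice or handling, which the labels do not state.

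The 29, 43 and 9 called pathway genes became 6, 10 and 3 with the 2-fold minimum and 4, 5 and 2 under the study's rule. Here too the share of all genes was not counted under either rule. The last count was 5 with only the 6 arrays and 4 to 9 on leaving out single arrays, lowest without hub replicate 2 (4) or 3 (5). Signs turned only for differences that were never called: Cd44 between hub and control with median centring (0.0062) and on leaving out arrays (-0.0185 to 0.0215), Has1 between leading edge and hub (-0.0115 to 0.13) and Has2 between hub and control (-0.47 to 0.25). Among other probe sets, a check chosen after seeing the data, the sign turned for 1423760_PM_at of Cd44 (-0.0439 to 0.00032) and 1452483_PM_a_at of Cd44 (-0.14 to 0.024) between hub and control, and for 1448793_PM_a_at of Sdc4 between leading edge and hub (-0.0097 to 0.0779). The cause was not tested.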
